A study of Gallus gallus with 9 samples.

Results

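The homeobox, T-box, forkhead (FOX), SOX and PAX genes are families of DNA-binding transcription factors, and they were followed here through 3 states of chicken embryo muscle culture. The members were all genes whose symbol in the deposited tables belongs to the HOX, MEIS, PBX, IRX, MSX, DLX, LHX, PRRX, TBX, FOX, PAX or SOX series. This gave 109 of 24881 listed genes: 32 HOX genes, 4 MEIS and PBX genes, 21 other homeobox genes, 11 T-box genes, 24 FOX genes, 3 PAX genes and 14 SOX genes. The files pair no row with PAX7, FOXM1, FOXC1, FOXC2, MEIS2, HOXA3 or HOXA9, and these were not analysed here.

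HOX genes lie in clusters, and their order along the chromosome follows the order of the body regions in which they act, so that the set of HOX genes a cell transcribes records where in the embryo it came from. The protein products of MEIS and PBX genes bind DNA together with HOX proteins. In the limb, T-box and LIM-homeobox factors set up outgrowth and limb type, PRRX and MSX factors mark the mesenchyme, PAX3 marks the muscle precursors that migrate in, and FOXO and SOX factors act later in muscle growth and in fibre, cartilage and neural crest cells.

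RNA sequencing covered 9 libraries of total RNA, 3 in each of 3 groups, all of skeletal muscle cells from chicken embryos, labelled passage 1. PM cells had just come through serial plating. GM cells were proliferating in growth medium, RPMI-1640 with 15% fetal bovine serum. DM cells had spent 4 days in differentiation medium with 2% horse serum and are labelled as myotubes. The muscle, the embryonic age and the number of embryos are not given, and nothing says that the replicates were separate cultures, so the spread behind each p-value is that of these 3 libraries a group and may be technical.

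The libraries held 16052542 to 27546527 reads, and 14796 genes had enough reads to be tested. On the third principal component GM replicate 3 lay at -33.6, away from its group's other values of 15.0 and 21.4. In the PM files 25950 features are listed and in the GM and DM files 26591, so that the PM group and a difference in processing cannot be told apart. Between GM and PM, fold changes also followed transcript length: the median log2 fold change ran from -0.70 in the shortest eighth of genes to 0.57 in the longest. Between DM and PM it ran from -0.47 to 0.49 in the same way, and between DM and GM from 0.17 to -0.12. The label of the DM group was not matched by all muscle genes. DES, the muscle intermediate filament desmin, had a mean of 155 FPKM in PM, 811 in GM and 142 in DM, and the summed level of 8 myogenic markers ran from 1269 to 1339 FPKM in PM, 1708 to 2919 in GM and 786 to 875 in DM. The markers did not move together: between PM and DM, 2 of the 8 rose and 3 fell. MYF5, a determination factor, went from a mean of 406 FPKM in PM to 37.0 in DM, and CHRND from 6.12 to 21.9. FPKM is a level scaled to transcript length and to the reads of the library. In such bulk samples, fewer cells of a type and less RNA per cell cannot be told apart.

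Of the 109 members, 79 were tested, 65 reached a mean of 1 FPKM in at least 1 group, and 5 had no read in any library (HOXB1, HOXB13, HOXC13, FOXB2 and LHX3). Calls are from edgeR's quasi-likelihood test at a Benjamini-Hochberg adjusted p under 0.05 over all 14796 genes. Between PM and GM, 23 members rose and 16 fell, beside 32% of all tested genes that rose and 34.1% that fell, or 66.1% called in either direction. Between GM and DM, 43 members rose and 20 fell, beside 30.8% and 30.3% of all genes, or 61.1% in either direction. Between PM and DM, 47 rose and 15 fell, beside 33.5% and 32.7%, or 66.2% in either direction. These shares over all tested genes also belong beside each family and list count given below. The 3 comparisons share libraries and are not independent of one another. The median log2 fold change of the tested members was 0.29, 0.64 and 0.72 in these comparisons, and that of all tested genes was -0.01, -0.0002 and 0.02.

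The low-count filter let 14 members through on the DM libraries alone, which favoured a higher level in DM for such genes. Of these, 10 were HOX genes, and LHX2, IRX3 and TBX5 were among the rest. Other members passed it in some groups but not in all. Among them were SOX10 in PM alone, SOX21 in GM alone, and PAX3, SOX18 and DLX3 in PM and GM. HOXA2, HOXC6, LHX8, SOX6 and PAX9 passed in GM and DM, and HOXB7, DLX6, IRX2 and LHX9 in PM and DM. For these the filter favoured a lower level in the groups left out. Among the 47 members that passed the filter in every group, 23 rose and 12 fell between GM and DM, and 17 rose and 10 fell between PM and GM. Between PM and DM, 27 of them rose and 9 fell. All 8 tested macrophage markers fell between PM and GM, with a median log2 fold change of -2.36, and between GM and DM 3 rose and 0 fell. Their sums ran from 618 to 653 FPKM in PM, 60.7 to 139.7 in GM and 104.4 to 117.7 in DM. The part of these markers in any member's change was not tested. Without GM replicate 3, 43 members rose and 16 fell between GM and DM, and 25 rose and 14 fell between PM and GM.

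**Figure D1:**
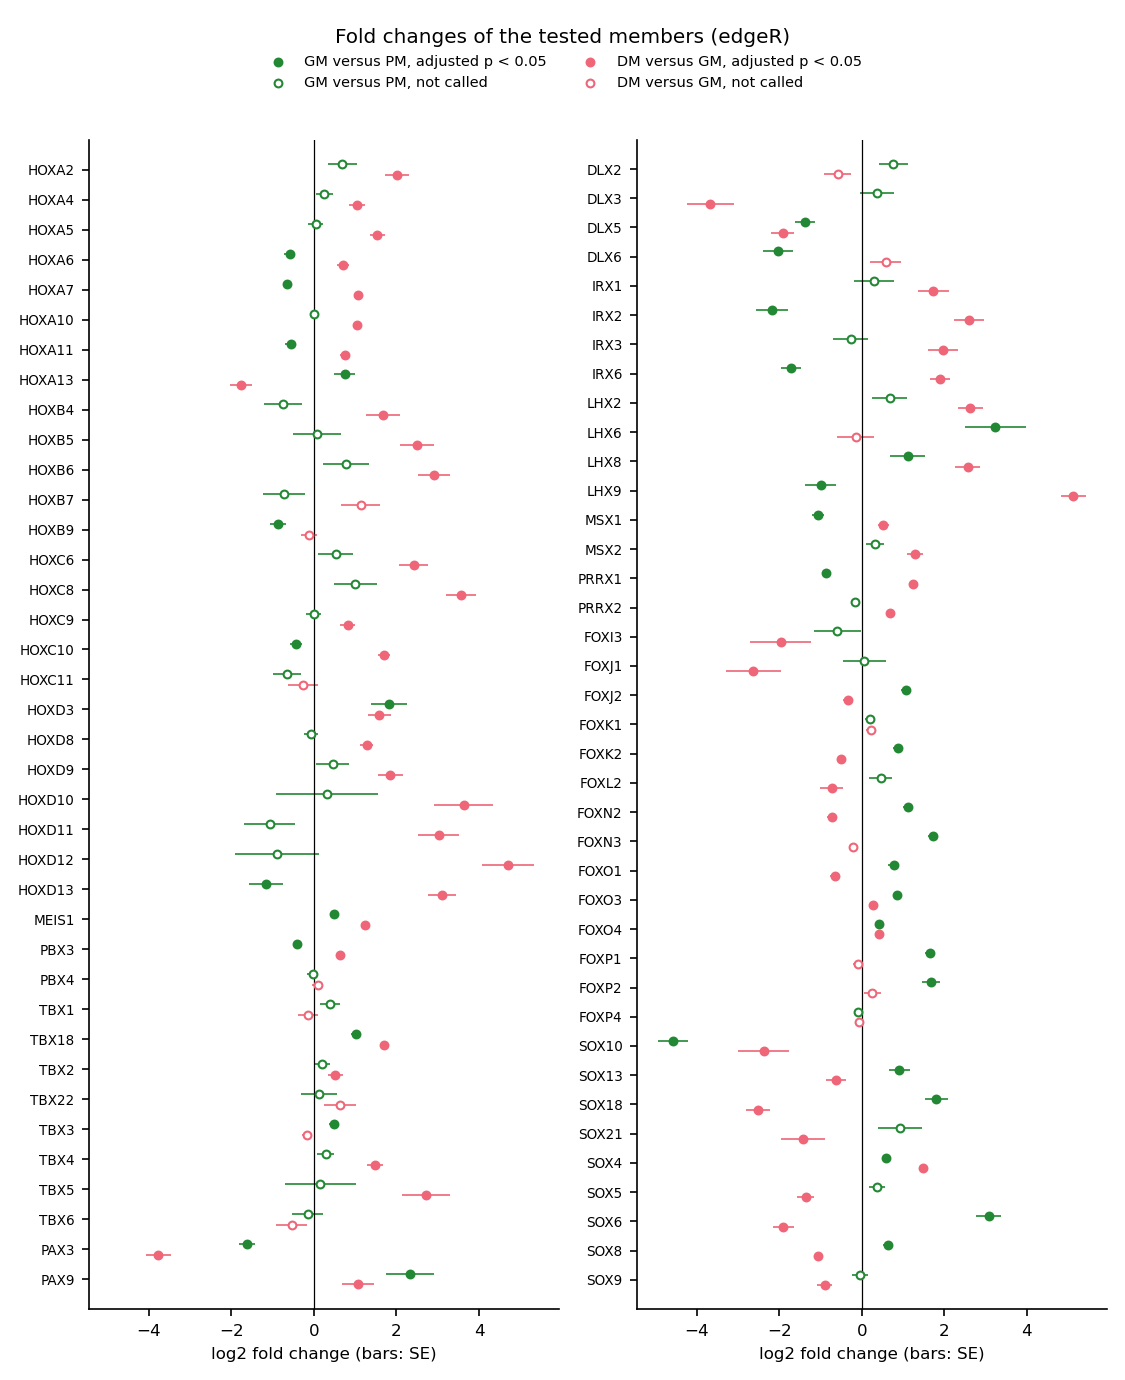
Log2 fold changes of 77 tested members (horizontal axis, with their standard errors as bars) between PM and GM (green) and between GM and DM (pink). Filled points had an edgeR adjusted p under 0.05. Most HOX points of the DM comparison lie to the right of 0, with HOXA13 to the left, while most SOX points of that comparison lie to the left.

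By mean FPKM, which is per length, HOXA7 was first in all 3 groups and HOXA10 second. The deposited FPKM used the listed gene length for 71 of the 109 members, HOXA10 among them, but another length for HOXA4 to HOXA7. The gap between HOXA7 and HOXA10 therefore depends on the lengths used. With the listed lengths, 1256 and 1095 bases, HOXA7 still had more reads per length than HOXA10 in the pooled reads of each group. The gap was then small in GM and DM, and in DM replicate 2 the order was reversed. HOXA7 read 38.5, 33.4 and 33.8 FPKM in the PM libraries, 24.6, 25.5 and 24.8 in GM, and 53.1, 46.3 and 51.3 in DM. HOXA10 read 19.3, 17.9 and 17.4 FPKM in PM, 20.02, 19.8 and 20.5 in GM, and 38.8, 39.6 and 40.6 in DM. These 2 genes together made up 49.8% ± 2.07 of the summed HOX level in PM, 47.5% ± 0.862 in GM and 45.7% ± 2.82 in DM (SD, n = 3). The summed HOX level is that of the 32 named HOX genes, without HOXA3 and HOXA9.

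In PM, HOXA6 at 12.7 ± 1.19 FPKM and HOXA11 at 8.09 ± 0.779 came next, followed by HOXC10 at 6.26 ± 0.293, HOXB9 at 5.84 ± 1.10 and HOXC9 at 4.78 ± 0.304. In PM and in GM the first 4 places were the same genes in the same order, with no overlap between the libraries of neighbouring places. HOXC10 and HOXB9 in PM, and HOXC9 and HOXC10 in GM, overlapped and had no order beyond their spread. In DM, HOXC10 took the third place at 16.0 ± 2.29 FPKM, and from there down to HOXA2 in the thirteenth place every gene overlapped its neighbour. A mean of at least 1 FPKM was reached by 12 HOX genes in PM, by 13 in GM and by 18 in DM.

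The files place HOXA on chromosome 2 (minus strand), HOXB on chromosome 27 from 3743555 to 3882191 (plus), HOXC on chromosome 33 from 972488 to 1096547 (plus) and HOXD on chromosome 7 from 16326992 to 16392023 (minus), in a build that is not given in the sources used here. HOXA, without HOXA3 and HOXA9, held 77.7% ± 1.88 of the summed HOX level in PM, 76.8% ± 1.40 in GM and 69.2% ± 1.45 in DM. HOXC held 11.5% ± 1.07, 13.04% ± 1.15 and 18.5% ± 1.56. HOXD held 3.98% ± 0.256, 4.94% ± 0.485 and 7.49% ± 0.427. The DM libraries thus lay below all others for the HOXA share and above all others for the HOXC and HOXD shares.

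By position along the clusters, paralog groups 5 to 8 held 53.0% ± 1.92 of the summed level in PM, 47.2% ± 0.357 in GM and 51.6% ± 1.11 in DM. Groups 9 to 13, the posterior genes used in the limb bud and the tail end of the trunk, held 42.8% ± 1.74, 46.2% ± 0.646 and 42.6% ± 1.37. Groups 1 to 4, the genes of the head and neck end, held 4.19% ± 0.228, 6.59% ± 0.722 and 5.82% ± 0.352. The PM and DM libraries overlapped for groups 9 to 13, and the GM libraries lay above both. On a TPM scale, which takes the listed lengths, groups 5 to 8 held 44.0% and groups 9 to 13 held 49.4% in GM. Which of the 2 was larger in GM thus depended on the lengths used. HOXA9, of group 9, and HOXA3 were not analysed and are in none of these shares. An unnamed gene with 1575 reads that overlaps HOXA4 and HOXA5 is not counted either.

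**Figure D2:**
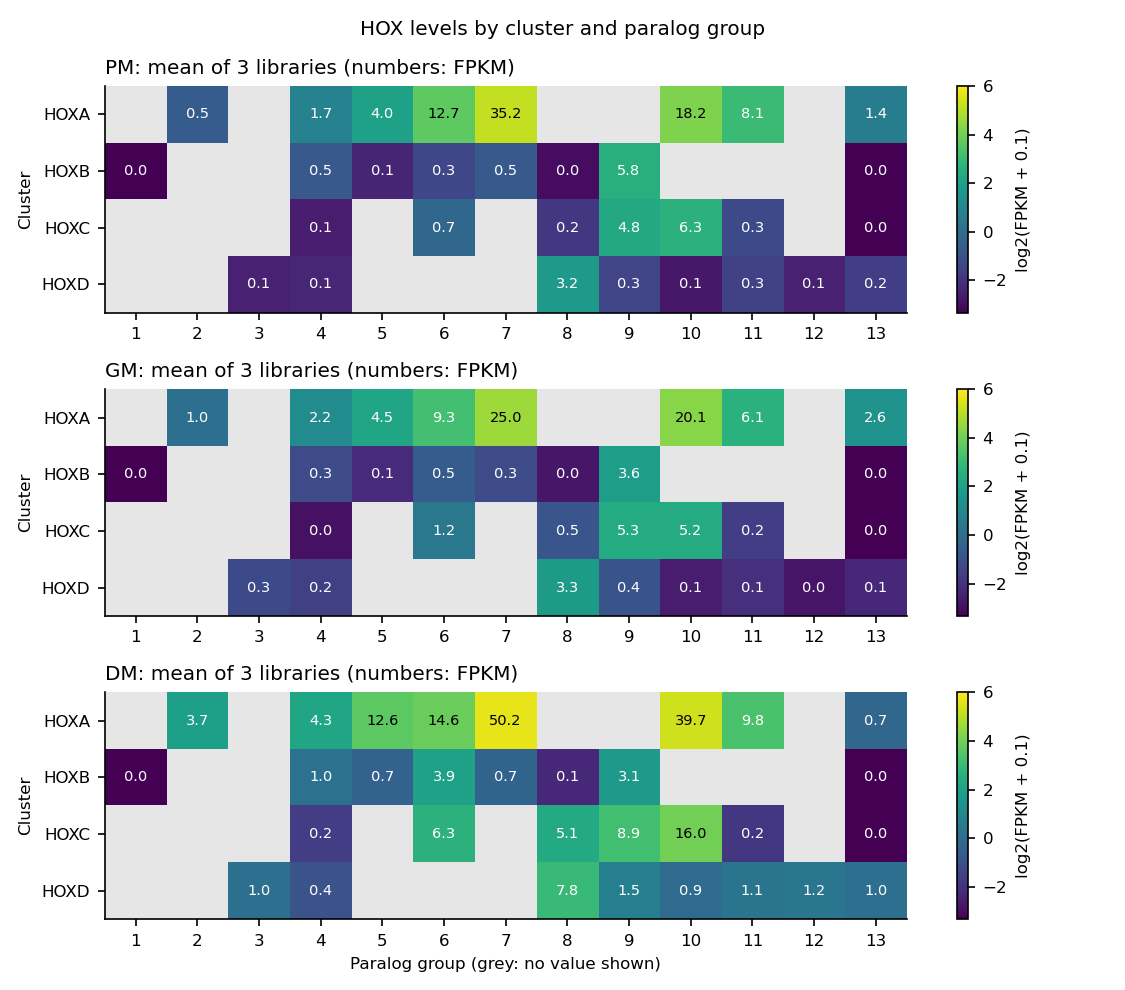
Mean FPKM of each HOX gene (numbers, 3 libraries a group) by cluster (vertical) and paralog group (horizontal), with colour on a log2(FPKM + 0.1) scale and grey where no value is shown. HOXA7 at 35.2, 25.0 and 50.2 FPKM and HOXA10 at 18.2, 20.1 and 39.7 FPKM are the brightest cells in PM, GM and DM.

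Between GM and DM, of the 26 tested HOX genes, 21 rose and 2 fell, and the median log2 fold change was 1.56. The summed HOX level was 92.7, 97.4 and 94.9 FPKM in the GM libraries and 216, 179 and 197 FPKM in the DM libraries, and the groups did not overlap. Of the 13 HOX genes that passed the count filter in every group, 9 rose and 2 fell. The 10 HOX genes that passed it in DM alone were HOXB4, HOXB5, HOXB6, HOXC8 and 6 HOXD genes.

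HOXA7 rose by a log2 fold change of 1.07 ± 0.09 (SE, edgeR adjusted p = 1.56e-06) and HOXA10 by 1.03 ± 0.08 (edgeR adjusted p = 9.48e-07). HOXA5, a gene of the shoulder and forelimb level, read 4.58, 4.56 and 4.41 FPKM in GM and 15.6, 10.4 and 11.8 in DM. Its DM libraries lay above all others, and it rose by 1.54 ± 0.17 (edgeR adjusted p = 1.58e-05). HOXC10, a gene of the lumbar and hindlimb level, read 4.61, 5.99 and 4.89 FPKM in GM and 17.9, 13.5 and 16.6 in DM, with no overlap. It rose by 1.69 ± 0.14 (edgeR adjusted p = 1.65e-06).

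Larger fold changes came from HOX genes whose means in PM and GM were 1.23 FPKM or less. HOXC8, a gene of the trunk, read 0.525, 0.557 and 0.271 FPKM in GM and 5.20, 4.83 and 5.21 in DM, a log2 rise of 3.56 ± 0.36. HOXC8 and HOXB6 passed the count filter in DM alone, which favoured a rise, and nothing is read from their rises. HOXC6 rose by 2.42 ± 0.35 to 6.33 ± 2.16 FPKM, HOXB6 by 2.91 ± 0.39 to 3.94 ± 1.00, and HOXA2 by 2.01 ± 0.28 to 3.74 ± 1.02 FPKM. For HOXC6 and HOXA2 the 3 DM libraries lay above every PM and GM library.

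Of the 7 tested HOXD genes, HOXD3 and HOXD9 to HOXD13 passed the count filter in DM alone. This favoured a rise, and nothing is read from their common direction. HOXD8, the most abundant, passed it in every group, with 2.91, 3.26 and 3.80 FPKM in GM and 8.11, 7.49 and 7.75 in DM, a log2 rise of 1.28 ± 0.16 (edgeR adjusted p = 3.33e-05). The genes at the other end of the cluster, HOXD10 to HOXD13, pattern the limb bud along its length and its digits. They had 6, 10, 4 and 17 reads in the 3 GM libraries together and 69, 74, 101 and 130 reads in DM, and their DM means lay between 0.858 and 1.15 FPKM. Of these, HOXD12 had the largest log2 rise, 4.70 ± 0.63, from 4 GM reads, and HOXD13 rose by 3.10 ± 0.35. HOXD3 was called higher in both steps, from 0.0818 ± 0.0113 FPKM in PM to 0.328 ± 0.0431 in GM and 0.954 ± 0.115 in DM. It had 6 reads in PM, 34 in GM and 90 in DM, and the filter favoured its rise into DM.

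HOXA13, a gene of the distal limb, read 1.68, 1.43 and 1.18 FPKM in PM, 2.99, 2.73 and 2.22 in GM, and 0.792, 0.859 and 0.567 in DM. Its DM libraries lay below every PM and GM library. HOXA13 fell between GM and DM by 1.77 ± 0.26 on the log2 scale (edgeR adjusted p = 0.000119). Its neighbour HOXA11 rose by 0.75 ± 0.13 (edgeR adjusted p = 0.000427).

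Between GM and DM, 3 tested HOX genes were not called. HOXB9 read 3.61, 3.71 and 3.37 FPKM in GM and 3.03, 3.29 and 3.13 in DM, a log2 difference of -0.12 ± 0.19 (edgeR adjusted p = 0.608). HOXC11 stood at 0.233 ± 0.0962 FPKM in GM and 0.184 ± 0.0501 in DM. HOXB7 stood at 0.343 ± 0.248 and 0.704 ± 0.316 FPKM (edgeR adjusted p = 0.0586). HOXB8, HOXC4 and HOXD4 had 10, 26 and 71 reads in all and were not tested. The HOXB genes listed lie within the span of IGF2BP1 on the opposite strand, and whether strand was used in counting is not given, so reads of IGF2BP1 and of HOXB genes cannot be told apart.

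**Figure D3:**
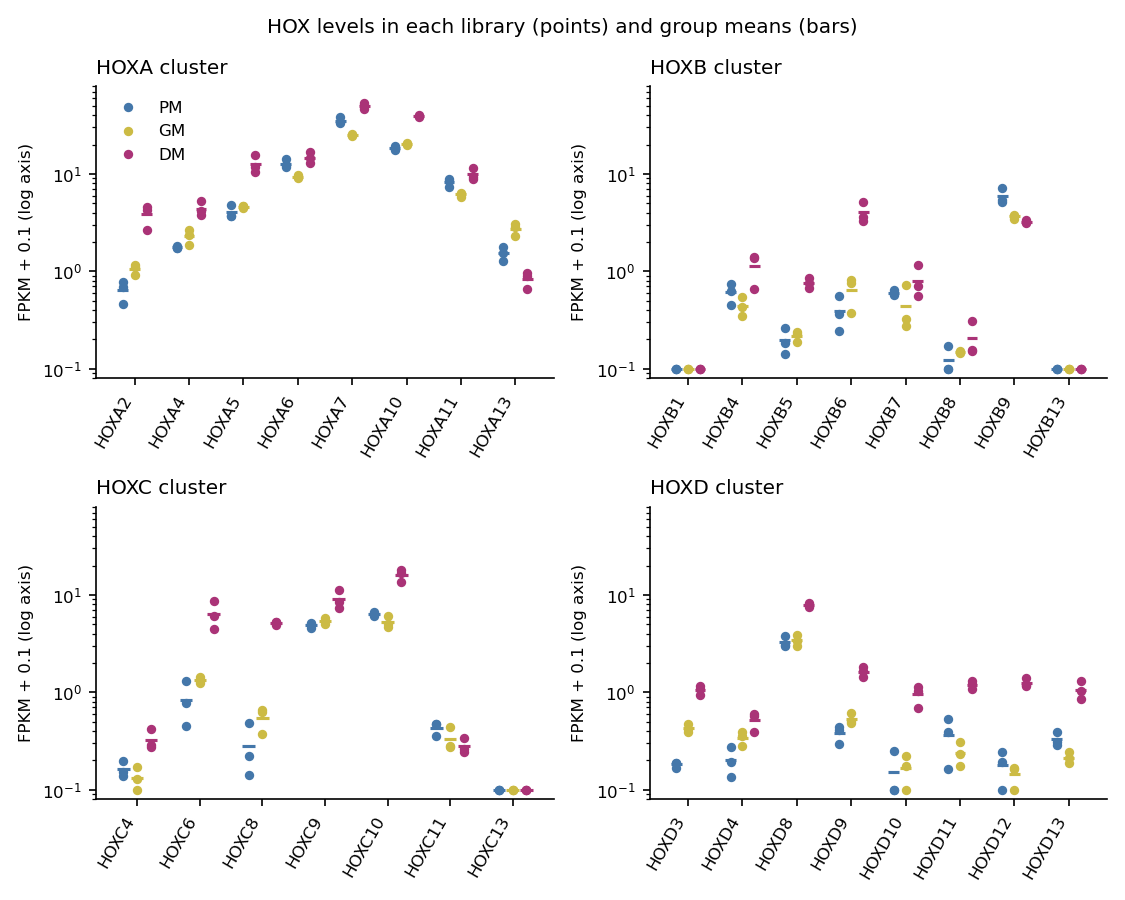
FPKM + 0.1 on a log axis for each HOX gene in each library (points, PM blue, GM yellow, DM purple), with group means as bars and 1 panel a cluster. The DM points stand above the GM points for 21 called genes such as HOXA7 at 46.3 to 53.1 FPKM and HOXC10 at 13.5 to 17.9 FPKM. They stand below the GM points for HOXA13, and for HOXA6 and HOXB4 they overlap the PM points.

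Between PM and GM fewer HOX genes were called. HOXD3 and HOXA13 rose, and HOXA6, HOXA7, HOXA11, HOXB9, HOXC10 and HOXD13 fell, of 26 tested. Of the 13 that passed the count filter in every group, 1 rose and 5 fell. The 10 that passed it in DM alone had few reads in PM and GM. HOXA7 fell by 0.64 ± 0.09 on the log2 scale (edgeR adjusted p = 6.18e-05) and HOXB9, a gene of the trunk, fell by 0.87 ± 0.19 (edgeR adjusted p = 0.00160). The GM libraries of both genes lay below every PM library. HOXA10 stood at 18.2 ± 1.02 FPKM in PM and 20.1 ± 0.373 in GM, and its read counts gave a log2 difference of -0.00 ± 0.08 (edgeR adjusted p = 0.975). With the length trend removed that difference was 0.22 (edgeR adjusted p = 0.0402).

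Some of these calls rested on single libraries or on the length trend. HOXA13 read an edgeR adjusted p of 0.0748 without PM replicate 3 and 0.0735 without GM replicate 1. HOXA6 differed by -0.30 (edgeR adjusted p = 0.0926) with the length trend removed, against -0.59 before, and HOXC10 by -0.29 (edgeR adjusted p = 0.0911), against -0.43. HOXC10 also missed the threshold without PM replicate 3 (0.0712) or GM replicate 1 (0.0768), and HOXD13 without PM replicate 3 (0.121), GM replicate 2 (0.0831) or GM replicate 3 (0.0595). Set against PM directly, 18 HOX genes were higher in DM and 4 were lower, HOXA13, HOXB9 and HOXC11 among them. The count filter favoured a rise for the 10 HOX genes that passed it in DM alone. Of the 13 that passed it in every group, 7 were higher in DM and 4 were lower. Without PM replicate 2 or without DM replicate 3, 2 HOX genes were lower in DM, and HOXC11 missed the threshold (0.105 and 0.108). HOXA4, HOXA5 and HOXA6 overlap in the listed gene models, HOXA4 with both others, and their reads may be shared.

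Regulators of the HOX clusters were counted from fixed lists, chosen like the members with earlier results of these data known. Of 21 tested Polycomb and Trithorax genes, which keep HOX genes silent or active, 11 rose and 5 fell between PM and GM, and 6 rose and 8 fell between GM and DM, with a median log2 fold change of -0.12 in the latter. ASH1L, a Trithorax-type histone methyltransferase, went from 9.02 ± 1.54 FPKM in PM to 32.1 ± 1.75 in GM and 36.9 ± 2.42 in DM, a log2 rise of 1.68 ± 0.10 between PM and GM (edgeR adjusted p = 2.54e-07). ASH1L is long, at 8943 listed bases, and the longest eighth of genes had a median log2 fold change of 0.57 in that step. PHF19, a Polycomb cofactor, rose between GM and DM by 1.35 ± 0.11 (edgeR adjusted p = 1.98e-06). Of 9 tested genes of the retinoic acid pathway, a signal that turns on HOX genes, 6 rose and 0 fell between GM and DM by edgeR, 0 fell at an unadjusted p under 0.05, and DESeq2 called 1 lower. RARB, a retinoic acid receptor, went from 3.48 ± 0.263 FPKM in GM to 8.43 ± 1.24 in DM, a log2 rise of 1.33 ± 0.14 (edgeR adjusted p = 1.26e-05). RXRG, a partner receptor, fell between PM and GM and rose by 2.47 ± 0.21 between GM and DM (edgeR adjusted p = 2.16e-06).

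Of the 4 MEIS and PBX genes, 2 rose and 1 fell between PM and GM, and 3 rose between GM and DM. MEIS1 read 7.57, 7.78 and 6.78 FPKM in PM, 11.6, 11.2 and 11.4 in GM, and 26.2, 27.0 and 24.3 in DM, with no overlap between groups. It rose by 0.48 ± 0.10 and by 1.24 ± 0.10 (edgeR adjusted p = 0.00141 and 1.1e-06), although its listed span holds another gene on the same strand whose reads may be shared.

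PBX3 moved in opposite directions, falling by 0.42 ± 0.08 on the log2 scale between PM and GM and rising by 0.62 ± 0.08 between GM and DM (edgeR adjusted p = 0.000494 and 3.1e-05). PBX4 stood at 8.87 ± 0.226, 9.60 ± 0.771 and 9.81 ± 1.41 FPKM, and its groups overlapped. Other homeodomain and zinc-finger homeobox cofactors were counted as a list: of 10 tested, 7 rose and 0 fell between PM and GM by edgeR, with 0 lower at an unadjusted p under 0.05 or by DESeq2, while 5 rose and 4 fell between GM and DM. ZFHX4 went from 1.65 ± 0.326 FPKM in PM to 6.39 ± 0.933 in GM and 17.1 ± 2.58 in DM, and TSHZ2 from 3.16 ± 0.461 to 10.5 ± 0.510 and 23.5 ± 1.73. ZFHX4 is also long, at 10713 listed bases, and the part of the length trend in its rise between PM and GM is not given here.

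PRRX1, which marks limb bud mesenchyme and connective tissue cells, had the highest mean FPKM of all members in each group, but its libraries overlapped those of SOX8 in GM and of SOX4 in DM. It read 93.0, 96.5 and 99.0 FPKM in PM, 62.5, 64.1 and 49.2 in GM, and 144, 122 and 134 in the DM libraries. The GM libraries were the lowest and the DM libraries the highest, with no overlap. PRRX1 fell by 0.87 ± 0.10 on the log2 scale between PM and GM (edgeR adjusted p = 1.43e-05) and rose by 1.25 ± 0.10 between GM and DM (edgeR adjusted p = 1.13e-06). Its paralog PRRX2 stood at 33.6 ± 1.33 FPKM in PM and 33.0 ± 4.56 in GM, and rose to 50.4 ± 1.37 in DM (edgeR adjusted p = 4.72e-05).

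MSX1, which keeps myoblasts undifferentiated when forced on in mouse cells, read 50.3, 57.5 and 56.9 FPKM in PM, 32.1, 24.8 and 30.5 in GM, and 46.3, 41.3 and 33.3 in the DM libraries. The PM libraries were higher than all others. It fell by 1.06 ± 0.14 on the log2 scale between PM and GM (edgeR adjusted p = 5.56e-05), rose by 0.52 ± 0.14 between GM and DM (edgeR adjusted p = 0.00706), and was lower in DM than in PM by 0.54 on that scale (edgeR adjusted p = 0.00543). MSX2 instead rose between GM and DM by 1.29 ± 0.20 (edgeR adjusted p = 0.000214), from 2.99 ± 0.399 to 6.97 ± 1.40 FPKM.

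The LIM-homeobox gene LHX9, which with LHX2 supports limb bud outgrowth in chick, had the largest rise of all tested members between GM and DM. It read 0.844, 0.541 and 0.676 FPKM in PM, 0.499, 0.529 and 0.141 in GM, and 11.99, 12.1 and 14.6 in the DM libraries. The 3 DM libraries stood far above the other 6, and the log2 rise between GM and DM was 5.13 ± 0.30 (edgeR adjusted p = 1.14e-07). LHX9 passed the count filter in PM and DM but not in GM, which favoured a lower level in GM. Its fall between PM and GM, 0.99 ± 0.37 on the log2 scale (edgeR adjusted p = 0.0347), was -0.58 (edgeR adjusted p = 0.0756) without GM replicate 3, and missed the threshold without PM replicate 1 (0.111) or PM replicate 3 (0.0825) as well. LHX2 went from 0.345 ± 0.119 FPKM in GM to 2.04 ± 0.258 in DM, a log2 rise of 2.63 ± 0.31. LHX2 passed the count filter in DM alone, which favoured a rise, and nothing is read from it. LHX8, a factor of the jaw and forebrain, rose by 2.57 ± 0.30 to 2.37 ± 0.743 FPKM (edgeR adjusted p = 2.36e-05).

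Of the Iroquois genes, which pattern limb, heart and nervous tissue, IRX2 and IRX6 were lower in GM than in PM and DM. IRX2 read 1.22, 1.13 and 1.33 FPKM in PM, 0.255, 0.421 and 0.228 in GM, and 2.34, 1.92 and 0.987 in DM. It fell by 2.18 ± 0.39 on the log2 scale between PM and GM and rose by 2.601 ± 0.37 between GM and DM (edgeR adjusted p = 0.000426 and 0.000100), and its PM and DM libraries overlapped. IRX6 fell by 1.71 ± 0.25 on the log2 scale and then rose by 1.90 ± 0.24 (edgeR adjusted p = 8.95e-05 and 3.93e-05). IRX3 stood at 0.374 ± 0.121 FPKM in PM and 0.335 ± 0.114 in GM, and was not called between them (edgeR adjusted p = 0.592). It stood at 1.27 ± 0.348 FPKM in DM, but passed the count filter there alone, which favoured a rise, and nothing is read from it.

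Of the 4 tested DLX genes, known from the limb ridge, the jaw, bone and skin, DLX5 and DLX3 fell between GM and DM and the others were not called. DLX5 read 11.1, 15.8 and 14.6 FPKM in PM, 7.36, 7.18 and 3.40 in GM, and 1.56, 1.48 and 1.46 in DM, with no overlap between groups. It fell by 1.37 ± 0.25 and then by 1.92 ± 0.28 on the log2 scale (edgeR adjusted p = 0.000537 and 0.000139). DLX6 fell by 2.02 ± 0.37 between PM and GM (edgeR adjusted p = 0.000483) and was not called between GM and DM. DLX3 read 1.38, 1.01 and 2.30 FPKM in GM and 0.0739, 0.228 and 0.0397 in DM, and fell by 3.68 ± 0.57 (edgeR adjusted p = 0.000183). DLX3 passed the count filter in PM and GM but not in DM, which favoured such a fall. Of 5 tested epidermal markers, 4 fell between GM and DM, and the sum over the 7 listed ran from 35.7 to 84.6 FPKM in GM, highest in GM replicate 3, and from 15.6 to 17.1 in DM, with KRT5 at 0 in PM and DM. Their part in the DLX results was not tested.

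Over the 16 tested homeobox genes outside the HOX, MEIS and PBX series, 11 rose and 2 fell between GM and DM, and 2 rose and 7 fell between PM and GM. Of the 7 that passed the count filter in every group, 5 rose and 1 fell between GM and DM. Mesenchyme and tendon factors outside these families were counted beside them: of 14 tested, 7 rose and 3 fell between GM and DM, and 12 rose and 1 fell between PM and DM. SCX, a tendon factor, went from 0.403 ± 0.139 FPKM in GM to 15.7 ± 1.67 in DM, a log2 rise of 5.28 ± 0.25 (edgeR adjusted p = 2.93e-08), and MKX, another, rose by 2.65 ± 0.25 (edgeR adjusted p = 5.32e-06).

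Between GM and DM, the fibroblast and smooth muscle marker sums rose along with most HOX genes, PRRX1, LHX9 and TBX18. Between PM and GM, where TBX18 rose, both sums were lower in GM, but the single markers were split. In that step 2 of 7 tested fibroblast markers rose and 2 fell, and 2 of 5 smooth muscle markers rose and 2 fell. The sum over 8 listed fibroblast markers ran from 1888 to 1995 FPKM in PM, 1084 to 1872 in GM and 3823 to 4447 in DM, and 5 of 7 tested rose between GM and DM while POSTN fell. The sum over 5 smooth muscle markers ran from 1549.9 to 1644 FPKM in PM, 364 to 476 in GM and 2862 to 3438 in DM, and 4 of 5 rose while CNN1 fell. Their part in these rises was not tested. TCF21, a mesenchyme factor on the fibroblast list, lay at 0.0565 FPKM or below in every group mean.

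**Figure D4:**
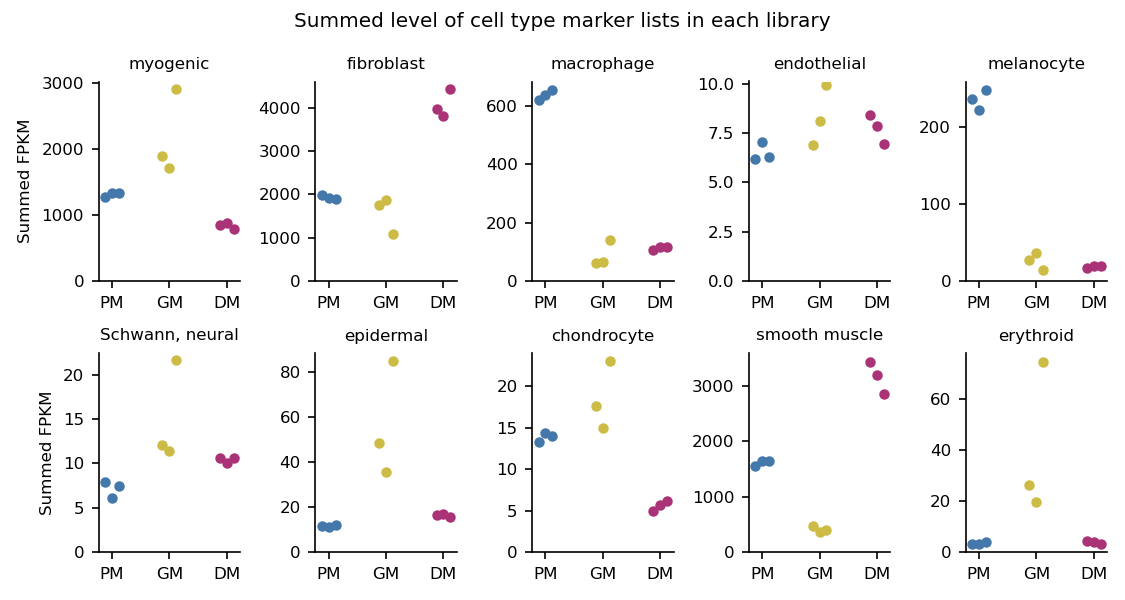
Summed FPKM of 10 fixed lists of cell type markers in each library (points), by group. The fibroblast and smooth muscle sums are highest in DM at 3823 to 4447 and 2862 to 3438 FPKM, the melanocyte sum is highest in PM at 222 to 248 FPKM, and GM replicate 3 is the highest GM point for the myogenic, epidermal and erythroid sums.

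Of the 8 tested T-box genes, 2 rose and 0 fell between PM and GM, and 4 rose and 0 fell between GM and DM by edgeR, and 0 fell at an unadjusted p under 0.05 or by DESeq2 in either step. Of the 6 that passed the count filter in every group, 3 rose between GM and DM. TBX3, a repressor of the limb bud and of many growing tissues, was the most abundant and stood at 17.2 ± 0.126 FPKM in PM, 26.6 ± 1.93 in GM and 22.7 ± 3.02 in DM. It rose by 0.48 ± 0.11 between PM and GM (edgeR adjusted p = 0.00240) and was not called between GM and DM, where the libraries overlapped. TBX18, a factor of mural and mesenchymal cells, read 2.42, 2.16 and 2.18 FPKM in PM, 5.31, 5.13 and 4.74 in GM, and 16.7, 14.1 and 16.4 in DM. Its groups did not overlap, and it rose by 1.02 ± 0.11 and then by 1.70 ± 0.10 (edgeR adjusted p = 1.36e-05 and 1.77e-07).

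TBX4 is the T-box gene of the hindlimb and TBX5 that of the forelimb. TBX4 read 1.01, 0.917 and 0.749 FPKM in PM, 1.05, 1.49 and 1.06 in GM, and 3.27, 2.79 and 3.57 in DM. TBX5 read 0.0658, 0 and 0.126 FPKM in PM, 0.0430, 0.137 and 0.0767 in GM, and 0.651, 0.3001 and 0.700 in DM. In every library the level of TBX4 per length was above that of TBX5. TBX4 rose between GM and DM by 1.48 ± 0.19 (edgeR adjusted p = 4.14e-05). TBX5 passed the count filter in DM alone, which favoured a rise, and nothing is read from its rise of 2.72 ± 0.59 on the log2 scale. It had 12 reads in the GM libraries and 71 in DM. TBX2 rose by 0.52 ± 0.19 (edgeR adjusted p = 0.0324), its libraries overlapped, and its adjusted p passed the threshold no longer when GM replicate 2 (0.113), DM replicate 1 (0.144) or DM replicate 2 (0.0790) was left out. TBX1, a regulator of head muscle, stood at 3.06 ± 0.990, 4.45 ± 0.822 and 3.88 ± 0.521 FPKM and was called in no comparison.

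PAX3, the factor of muscle precursors that enter the limb, fell in each step. It read 3.66, 3.87 and 4.28 FPKM in PM, 1.53, 1.59 and 1.16 in GM, and 0.104, 0.0714 and 0.112 in the DM libraries. The groups were far apart, and PAX3 fell by 1.62 ± 0.20 on the log2 scale between PM and GM (edgeR adjusted p = 3.24e-05) and by 3.77 ± 0.31 between GM and DM (edgeR adjusted p = 1.78e-06), from 130 reads to 8. MYF5, a muscle determination factor, fell between GM and DM by 2.93 ± 0.25 on the log2 scale (edgeR adjusted p = 1.36e-05), to a mean of 37.0 ± 8.65 FPKM. Of the 8 tested myogenic markers, 6 fell in that step, while 4 rose and 3 fell between PM and GM. A link of these markers to PAX3 was not tested. PAX9, a factor of the sclerotome and the pharyngeal pouches, was low: 0.0803 ± 0.0565 FPKM in PM, 0.444 ± 0.0896 in GM and 0.903 ± 0.407 in DM. It rose by 2.34 ± 0.58 between PM and GM (edgeR adjusted p = 0.00411). Its rise between GM and DM, 1.08 ± 0.39 (edgeR adjusted p = 0.0307), was 0.68 (edgeR adjusted p = 0.188) without DM replicate 2, and missed the threshold without GM replicate 2 (0.0830), GM replicate 3 (0.0645) or DM replicate 1 (0.0501).

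Homeobox genes of muscle precursors outside these families were counted as a list. Of 9 tested, 4 rose and 2 fell between PM and GM, beside 32% and 34.1% of all tested genes. Between GM and DM 3 rose and 3 fell, beside 30.8% and 30.3%, and nothing is read from these counts. MEOX1, a factor of the somite, fell between GM and DM by 2.14 ± 0.16 on the log2 scale (edgeR adjusted p = 7.51e-07), and PITX3, a factor of differentiating muscle, fell by 1.62 ± 0.09 (edgeR adjusted p = 5.68e-08). EN1 rose by 1.84 ± 0.20 (edgeR adjusted p = 1.05e-05), and SIX4, a muscle regulator, rose between PM and GM by 1.93 ± 0.14 (edgeR adjusted p = 8.85e-07).

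**Figure D5:**
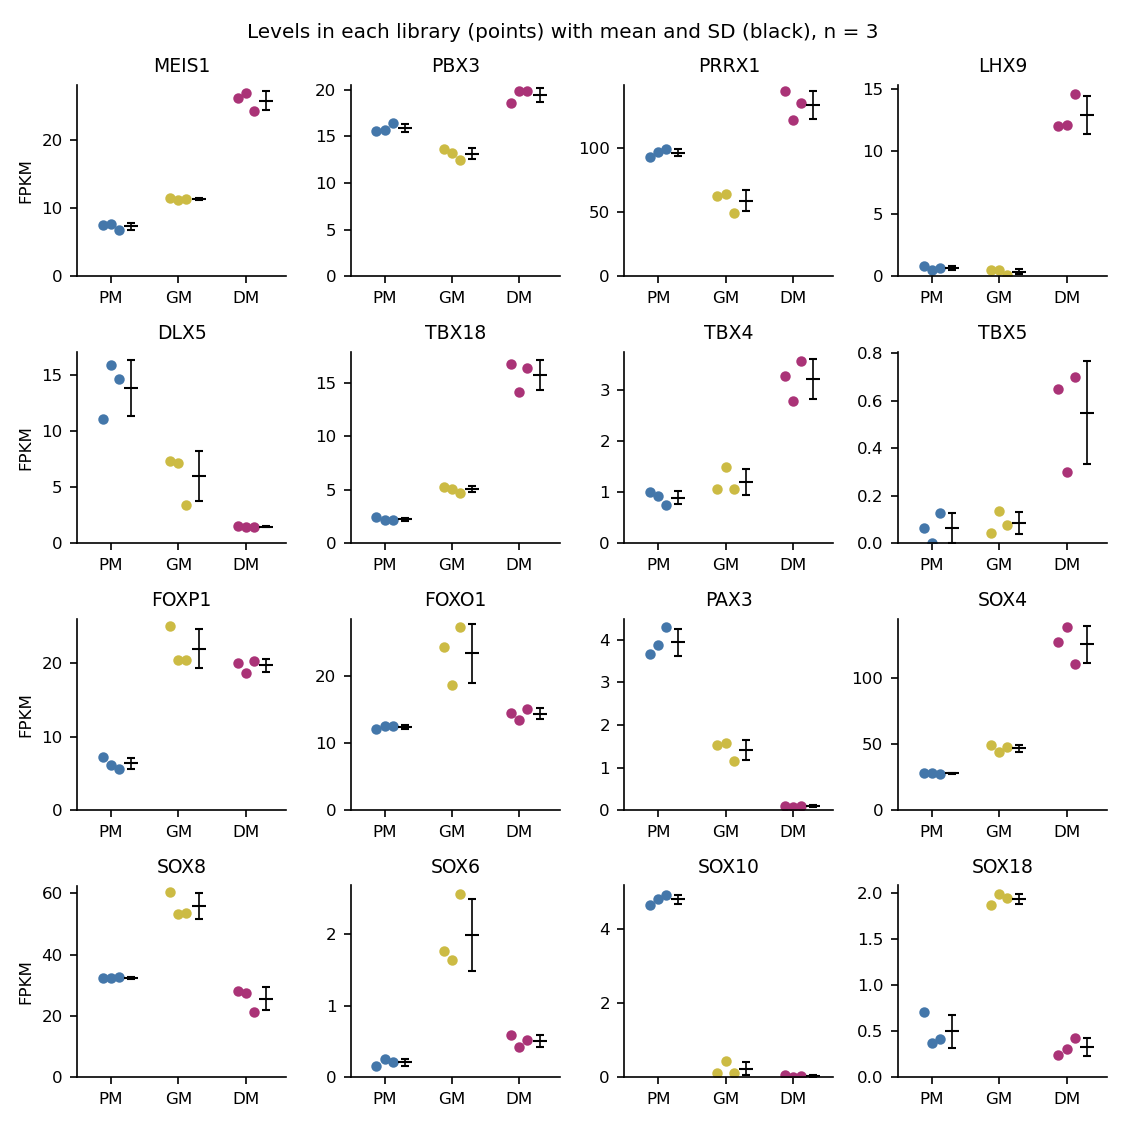
FPKM of 16 members in each library (points), with group mean and SD in black (n = 3). MEIS1, TBX18 and SOX4 step up from PM to GM to DM, PAX3 and DLX5 step down, and FOXO1, SOX6, SOX8 and SOX18 are highest in GM. LHX9 and TBX5 are highest in DM, where TBX5 has a low mean of 0.550 FPKM.

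Of the 14 tested FOX genes, 9 rose and 0 fell between PM and GM by edgeR, with a median log2 fold change of 0.81, and 0 fell at an unadjusted p under 0.05 or by DESeq2. Their summed level was 128, 116 and 111 FPKM in PM, 221, 199 and 216 in GM, and 182, 178 and 180 in DM. FOXP1, a repressor, read 7.24, 6.16 and 5.68 FPKM in PM, 25.0, 20.4 and 20.3 in GM, and 20.01, 18.7 and 20.3 in DM. All GM and DM libraries stood above all PM libraries, and FOXP1 rose by 1.64 ± 0.11 between PM and GM (edgeR adjusted p = 5.76e-07). FOXN3, which takes part in cell-cycle checkpoints, rose by 1.72 ± 0.12 (edgeR adjusted p = 7.12e-07) and FOXP2 by 1.67 ± 0.22 (edgeR adjusted p = 5.26e-05). FOXP4, the most abundant FOX gene, stood at 33.4 ± 1.65, 34.5 ± 3.35 and 31.8 ± 1.05 FPKM, and was called in no comparison.

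The FOXO genes, which drive muscle atrophy genes and hold back growth, differed among themselves. FOXO1 read 12.1, 12.5 and 12.6 FPKM in PM, 24.3, 18.7 and 27.3 in GM, and 14.6, 13.5 and 15.2 in the DM libraries. The GM libraries lay above the rest. FOXO1 rose by 0.77 ± 0.13 and then fell by 0.65 ± 0.13 on the log2 scale (edgeR adjusted p = 0.000301 and 0.00112), but its rise was 0.25 (edgeR adjusted p = 0.134) with the length trend removed. FOXO3 rose by 0.84 ± 0.09 between PM and GM (edgeR adjusted p = 1.18e-05), or 0.48 with the length trend removed (edgeR adjusted p = 0.000942). FOXO4 rose by 0.42 ± 0.09 in each step (edgeR adjusted p = 0.00176 and 0.00171). FOXO3 stood at 14.5 ± 1.35 FPKM in GM and 16.7 ± 0.758 in DM, a log2 rise of 0.26 ± 0.09 (edgeR adjusted p = 0.0241) that missed the threshold without GM replicate 1 (0.0905), GM replicate 2 (0.0879) or DM replicate 3 (0.0727).

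Between GM and DM, 2 FOX genes rose and 7 fell. Of the 12 FOX genes that passed the count filter in every group, 2 rose and 5 fell in that step. FOXN2 fell by 0.72 ± 0.12 on the log2 scale, from 19.5 ± 0.356 to 11.3 ± 0.328 FPKM (edgeR adjusted p = 0.000296). FOXK2, which represses atrophy and autophagy genes in mouse muscle cells with FOXK1, rose by 0.87 ± 0.11 and then fell by 0.50 ± 0.11 (edgeR adjusted p = 3.48e-05 and 0.00199), with a listed span that overlaps NARF on the same strand. FOXK1 stood at 7.40 ± 0.332, 9.41 ± 1.23 and 10.7 ± 0.754 FPKM and was called between PM and DM only, a log2 rise of 0.43 ± 0.12 (edgeR adjusted p = 0.00781).

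Of 15 tested targets of FOXO factors, 8 rose and 6 fell between PM and GM, beside 32% and 34.1% of all tested genes. Between GM and DM 6 rose and 5 fell, beside 30.8% and 30.3%, and nothing is read from these counts. TRIM63, an atrophy ubiquitin ligase, went from 4.69 ± 0.708 FPKM in PM to 17.8 ± 5.83 in GM and 9.90 ± 1.38 in DM, and rose by 1.78 ± 0.24 between PM and GM (edgeR adjusted p = 7.17e-05). All 9 tested targets of FOXM1, the forkhead factor of mitosis, fell between GM and DM, with a median log2 fold change of -2.17, and 7 of 9 fell between PM and GM. CDK1, the mitotic kinase, stood at 218 ± 11.1 FPKM in PM, 136 ± 42.7 in GM and 24.6 ± 1.43 in DM.

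SOX4 was the SOX gene that rose throughout. It belongs to the SOXC factors of undifferentiated and remodelling tissue, and read 28.3, 27.9 and 27.6 FPKM in PM, 49.0, 43.9 and 47.5 in GM, and 127, 138 and 110.4 in the DM libraries. The groups did not overlap, and SOX4 rose by 0.60 ± 0.09 and then by 1.48 ± 0.09 (edgeR adjusted p = 0.000132 and 1.61e-07). The other 8 tested SOX genes all fell between GM and DM, so that 1 rose and 8 fell of 9, with a median log2 fold change of -1.36. Of the 5 SOX genes that passed the count filter in every group, 1 rose and 4 fell in that step. Between PM and GM, 5 SOX genes rose and 1 fell, and of the same 5 that passed in every group, 3 rose.

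SOX8, which is found in muscle satellite cells in mouse, read 32.2, 32.3 and 32.9 FPKM in PM, 60.5, 53.1 and 53.7 in GM, and 28.2, 27.6 and 21.3 in the DM libraries. The GM libraries were the highest, and SOX8 rose by 0.63 ± 0.11 and then fell by 1.06 ± 0.11 on the log2 scale (edgeR adjusted p = 0.000329 and 8.03e-06). Its listed span lies on another gene of the same strand, and reads may be shared. SOX6, which in mouse muscle represses slow-fibre genes, read 0.158, 0.253 and 0.221 FPKM in PM, 1.77, 1.64 and 2.56 in GM, and 0.592, 0.424 and 0.520 in DM. It rose by 3.08 ± 0.30 and then fell by 1.90 ± 0.26 (edgeR adjusted p = 5.53e-06 and 7.07e-05), and its DM libraries lay between the other groups.

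SOX5 and SOX9, which with SOX6 run the cartilage programme, were not called between PM and GM and fell between GM and DM. SOX5 fell by 1.36 ± 0.21 on the log2 scale to 1.61 ± 0.157 FPKM (edgeR adjusted p = 0.000173) and SOX9 by 0.90 ± 0.19 to 1.67 ± 0.302 FPKM (edgeR adjusted p = 0.00157). Of 8 tested cartilage targets of these factors, 1 rose and 6 fell between PM and GM, and 3 rose and 3 fell between GM and DM. COMP, a matrix protein of cartilage and tendon, rose by 2.58 ± 0.16 between GM and DM (edgeR adjusted p = 2.36e-07), while CNMD, an inhibitor of vessel growth made by cartilage, fell by 1.70 ± 0.16 (edgeR adjusted p = 5.25e-06). The sum over 4 listed chondrocyte markers, which share genes with this list, ran from 13.3 to 14.4 FPKM in PM, 14.9 to 23.1 in GM and 4.94 to 6.17 in DM, and its part in the SOX results was not tested.

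SOX10, the factor of neural crest, melanocytes and Schwann cells, read 4.64, 4.81 and 4.90 FPKM in PM, 0.122, 0.428 and 0.131 in GM, and 0.0639, 0.0131 and 0.0412 in DM. PM held 857 reads, GM 55 and DM 9. It fell by 4.57 ± 0.36 on the log2 scale between PM and GM (edgeR adjusted p = 1.65e-06) and by 2.38 ± 0.62 between GM and DM (edgeR adjusted p = 0.00636). SOX10 passed the count filter in PM alone, which favoured a higher level in PM. The sum over 7 listed melanocyte markers ran from 222 to 248 FPKM in PM, 14.4 to 36.3 in GM and 17.4 to 19.1 in DM, and all 4 tested fell between PM and GM, while 1 rose and 2 fell between GM and DM. Of 7 tested Schwann and neural markers, 2 rose and 1 fell between PM and GM, and 1 rose and 3 fell between GM and DM, with sums over 9 listed of 6.16 to 7.94, 11.5 to 21.6 and 10.04 to 10.7 FPKM. CDH19 of that list was at 0 in DM. Of the melanocyte list, SLC45A2 was at 0 in GM and DCT at 0 in DM. The part of either list in the SOX10 and PAX3 results was not tested.

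SOX18, a factor of the endothelium, read 0.708, 0.379 and 0.422 FPKM in PM, 1.88, 1.99 and 1.95 in GM, and 0.242, 0.304 and 0.433 in the DM libraries. The GM libraries lay above all others, and SOX18 rose by 1.81 ± 0.29 and then fell by 2.51 ± 0.29 on the log2 scale (edgeR adjusted p = 0.000181 and 2.11e-05). Of 6 tested endothelial markers, 4 rose and 1 fell between PM and GM, and 1 rose and 3 fell between GM and DM. EGFL7 was the one that moved opposite to SOX18 in both steps, by -0.64 and 1.58 on the log2 scale (edgeR adjusted p = 0.0170 and 3.91e-05). The sum over the 7 listed overlapped between the groups, at 6.17 to 7.07, 6.90 to 9.94 and 6.97 to 8.43 FPKM in PM, GM and DM, and the part of these markers in the result was not tested. SOX13 read 3.54, 3.43 and 6.19 FPKM in GM, and its rise from PM, 0.91 ± 0.26 (edgeR adjusted p = 0.00843), was 0.55 (edgeR adjusted p = 0.0179) without GM replicate 3. Its fall between GM and DM, -0.63 (edgeR adjusted p = 0.0447), was -0.27 (edgeR adjusted p = 0.208) without that library and missed the threshold without DM replicate 2 (0.0840) or DM replicate 3 (0.158). SOX21 fell between GM and DM by 1.43 ± 0.53 (edgeR adjusted p = 0.0352), a call that was lost without GM replicate 1 (0.0770), GM replicate 3 (0.0768), DM replicate 1 (0.0969) or DM replicate 3 (0.119). SOX21 passed the count filter in GM alone, which favoured such a fall.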

How the data were processed

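Per the submitters' processing notes, reads were aligned with HISAT and counted with HTSeq. Their versions, the genome build and the strand setting: not given in the sources used here. The deposited tables hold a raw read count per gene and an FPKM value that the authors computed from it. FPKM, the deposited level per transcript length and library size, is used here for levels, and the deposited counts for tests. Features without an Ensembl gene ID were left out, as were 2 broken lines in each GM and DM table. Library totals ran from 16052542 to 27546527 reads, and genes with few reads have wide errors.

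All 9 libraries were fitted together with edgeR 4.0.16 in R 4.3.3 (filterByExpr, TMM, robust quasi-likelihood test, Benjamini-Hochberg adjustment over 14796 genes). Standard errors were taken as the size of the log2 fold change over the root of F. Alternatives used DESeq2 1.42.0, limma 3.58.1 on log2(FPKM + 0.1) or log2(FPKM + 1), other filters, the 2 groups alone, a removed length trend, a replicate block, and each library left out. The fit was tested on simulated data.

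Members and lists were chosen with earlier results of these data known. Named were the HOX, MEIS and PBX genes, a fixed set of other members, the 4 called members per family, comparison and direction with the largest fold and at least 1 FPKM, and up to 3 called genes per list. FOXP4 and the marker genes were named after their values were seen. Some genes of the members and lists are counted but not reported here by name or value. No sequence was used here.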

Additional observations from a re-analysis of the deposited data

How the results depend on the processing

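Of 164 called member comparisons, 142 stayed past the threshold under every alternative that gave the gene an adjusted p, 22 lost the call under at least 1, and 0 changed sign. An alternative whose filter dropped a gene gave no value for it and was not counted as a loss. Comparisons that were not called were kept apart: 20 of 73 passed under some alternative. Whether the replicate numbers pair the samples is not given. Same-number correlations ran from -0.107 to 0.101 and different-number ones from -0.118 to 0.128. With 3 libraries a group, these cannot settle it. With a replicate block, members rising and falling were 23 and 15 between PM and GM, 43 and 18 between GM and DM, and 46 and 14 between PM and DM.

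Small counts moved most, and the cause was not tested. HOX genes that rose between PM and GM (2) were 1 with the FPKM minimum or the 2 groups alone, 4 with limma on log2(FPKM + 0.1) or with the length trend removed, and 1 to 3 with a library left out. HOX genes lower in DM than in PM (4) were 2 to 3 with a library left out. Retinoic acid genes that rose between PM and GM (3) were 5 with limma on log2(FPKM + 0.1), and those that fell between GM and DM (0) were 1 by DESeq2 or with no filter. FOXM1 targets that rose between PM and GM (1) were 0 with the length trend removed and 0 to 2 with a library left out. Cartilage targets that rose there (1) were 0 with the trend removed and 0 to 1 with a library left out, and with the FPKM minimum 3 fell (6), while between PM and DM 1 rose (2) and 3 fell (6). Cofactors that fell between PM and GM (0) were 1 with the trend removed and 0 to 1 with a library left out, and between GM and DM (4) were 2 with the 2 groups alone and 2 to 4 with a library left out. Polycomb and Trithorax genes that fell between PM and GM (5) were 3 with the 2 groups alone, 2 with either limma fit and 3 to 5 with a library left out, and between GM and DM (8) were 5 to 8. Connective tissue factors that fell between GM and DM (3) were 1 with no filter or the trend removed and 1 to 3 with a library left out. FOXO targets lower in DM than in PM (3) were 5 with the trend removed. On a TPM scale, paralog groups 9 to 13 held 46.2%, 49.4% and 45.5% of the HOX level in PM, GM and DM. Groups 5 to 8 held 49.5%, 44.0% and 48.7%, and HOXA 75.3% in GM and 67.1% in DM.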
